A study of Mus musculus with 12 samples.

Results

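The genes described here encode the factors that start, extend and end protein synthesis. They were chosen by symbol alone: every gene present in both normalized-count tables whose symbol began with Eif1 to Eif5, Eef1, Eef2 or Pabpc and a digit, together with the release factor genes Etf1 and Gspt1, and without the Eif2ak kinases and Eef2k. This gave 56 genes of the 10080 genes present in both tables. No difference between genotypes entered the rule, though a gene had to be listed in the RPF table, and 19 matching symbols listed only in the mRNA table were left out. Ribosome footprinting sequences the mRNA fragments that ribosomes protect from RNase (RPF), and it was run beside mRNA sequencing in 6 Ba/F3 clones, 3 RPL10 R98S (clones 11, 13 and 35) and 3 RPL10 WT (clones 28, 29 and 36), which gave 12 libraries. Ba/F3 is an interleukin-3 dependent mouse lymphoid line. All 6 clones carried a retroviral vector for human RPL10, either WT or with the arginine-to-serine change R98S found in T-cell leukemia, and an shRNA against the endogenous Rpl10, and each culture grew from a single cell and was kept for a knockdown of at least 90%. A clone thus stems from 1 founder cell with the vector integrations it carried, whose number is not given in the sources used here. In any single clone the effects of the founder and its integrations cannot be told apart from those of genotype. All cells received cycloheximide, which arrests elongating ribosomes, at 100 µg/ml for 5 min, and the authors pooled 3 technical footprinting repeats of every clone.

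Translation begins when eIF2 brings initiator tRNA to the small ribosomal subunit, with eIF1, eIF1A, eIF5 and the large eIF3 complex helping it to scan for a start codon. The eIF4 factors bind the mRNA cap, unwind the leader and connect it to poly(A)-binding protein, eIF5B joins the large subunit, and eIF2B reloads eIF2 with GTP. The eEF1 factors deliver aminoacyl-tRNA and exchange its GTP, eEF2 moves the ribosome by a codon, and eRF1 (Etf1) with eRF3 (Gspt1) releases the finished chain. Several of these mRNAs start with a 5′ terminal oligopyrimidine tract (TOP), a C followed by a run of C or T through which mTOR and LARP1 regulate their translation, as they do for ribosomal protein mRNAs.

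The start sites of 5 of the 10 members counted as known TOP mRNAs are shown because this group is described for its translation efficiency, followed by those of the 3 members whose RPF count differed between genotypes. Each line holds the 10 bases before and the first 10 bases after the RefSeq transcription start in GRCm38.p6, 5′ to 3′ on the strand of the gene. The search was for a C followed by at least 5 further bases of C or T on the sense strand, and capitals mark such a run.
Eef1a1: ctccgCCCTCTTCCCgaggg
Eef1b2: ctgcagttccgccggaagta
Eef2: aaggccgggcgttgacgtca
Eif3f: tctaggCTCTCTCTCTTTCT
Eif4b: tcccgtcggacgccgcgcca
Eif2a: gactccgcccgctccggaga
Eif4a2: gaaaccccgtaggagcaggg
Eif4g3: tccgagcggccgtcctgccg
The windows lie at chr9:78481715-78481734 (minus strand), chr1:63176821-63176840, chr10:81176621-81176640, chr7:108934405-108934424, chr15:102073763-102073782, chr3:58525811-58525830, chr16:23107458-23107477 and chr4:137993445-137993464 (all plus strand). Eef1a1 and Eif3f held such a run and the other 6 windows did not. Over all 43 members with a RefSeq promoter sequence in the table used, 8 held the run in at least 1 window, and 15.1% of all 32851 promoter windows did. A run in this window is a match of letters and says nothing of the start that these cells used.

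Depth, recovered as whole reads from the normalized values, was 3477723 to 10883086 reads in the R98S and 4611390 to 7162305 in the WT footprinting libraries, and 20576796 to 22178094 and 6617457 to 23136595 in the mRNA libraries. The mRNA library of WT clone 28 was the shallow one, at 6617457 reads. Of 55 members with mRNA reads, 23 had their highest RPF count and 24 their highest TE in clone 28. At the low end, WT clone 29 held the lowest RPF count for 22 and the lowest mRNA count for 20 members, and R98S clone 13 the lowest RPF count for 20 and the lowest TE for 20. Values without clone 28 are given beside the largest differences of each measure and the TE of TOP mRNAs, where it moved them by over 1.5 times. The part of its depth in these values was not tested. Endogenous Rpl10 had 1449 to 2905 normalized mRNA counts in R98S and 2230.2 to 4501 in WT clones, with the shRNA present in both. Of the markers of the line, Ptprc, Il3ra, Csf2rb and Csf2rb2 had at least 560.2 normalized mRNA counts in each clone and Kit was at 0. Csf2rb ranged from 52827 to 64432 in R98S and from 21027 to 48871 in WT clones and Csf2rb2 from 41694 to 53531 and from 19926 to 31276, both higher in every R98S clone. Of 7 B lineage markers, Cd79a ranged from 878 to 1357 in R98S and from 730.4 to 851 in WT clones and Cd79b from 313 to 589 and from 163 to 303, again without overlap, Pax5 was at 0 and the other 4 had at most 2.69. Of the myeloid and mast cell genes read, Cpa3 ranged from 253 to 787 in R98S and from 13.4 to 174 in WT clones, whereas Mcpt8, Lyz2 and Mpo overlapped. The T cell and stroma genes read had at most 10.3, for Col1a1, which was higher in every R98S clone. Of the 2 globin genes, Hba-a1 ranged from 1.64 to 4.76 and from 28.9 to 169, whereas Hbb-bs overlapped at 0. Over all genes, mRNA values did not overlap between genotypes for 11.9% higher and 11.6% lower in R98S. The part of these marker differences in the results was not tested.

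Most members carried many footprints for their length. Together they took 3.92 to 4.33% of all normalized mRNA counts in the WT and 4.14 to 4.56% in the R98S clones, and 2.54 to 2.96% and 2.64 to 2.70% of all RPF counts, and in both assays the genotypes overlapped. Compared per length, as RPF counts per kilobase of counted coding sequence, 30 of the 55 members with mRNA reads stood in the top 10% of 9740 genes and 42 in the top 25%, and 4 lay below the median. The order in WT clones began with Eef1a1, the carrier of aminoacyl-tRNA, at 19706 ± 3728 RPF counts per kilobase (mean ± SD, n = 3). It was followed by Eef1b2, a subunit of the exchange factor of eEF1A, at 12161 ± 767, Eif5a, which relieves stalls at proline-rich stretches, at 11859.5 ± 1351, and Eef2, the translocase, at 10087 ± 2808. Eef1b2, Eif5a and Eef2 did not differ beyond the spread between clones. Eif4a1, the main cap-complex helicase, reached 6564 ± 1999, Eef1g 6415 ± 1105, Eif3h 4885 ± 478 and Eif1ax 3645 ± 345. The low end was held by Pabpc4 at 60.6 ± 14.5, Eif4e3 at 67.5 ± 20.4 and Eif4enif1, which carries eIF4E into the nucleus, at 117 ± 21.6. Pabpc6 was last, at 0.947 ± 0.215: it had 1 to 3 normalized RPF counts in each library and was listed at 0 in every mRNA library, and it was tested in no comparison. The range over the other 55 spanned 325-fold between Eef1a1 and Pabpc4 in WT clones, and 818-fold between Eef1b2 and Pabpc4 with median transcript lengths. The median coding length of Eef1b2 was 204 bases, against 675 for its longest transcript. With APPRIS principal transcripts Eef1d, at 7213 RPF counts per kilobase, and Eif4g2, at 6989, stood above Eif4a1, against 2942 and 1112 with the lengths used here. The same RPF counts were then divided by a shorter coding length. It was 843 bases against 1980 for Eef1d and 483 against 2718 for Eif4g2, so the rise reflects the length annotated. Coding lengths came from the longest annotated coding transcript, and Eef1a1 also has processed copies in the genome whose reads cannot be told apart from its own.

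The members differed widely in how many footprints they carried for their mRNA. Ranked among all genes by RPF counts per coding kilobase over mRNA counts per exon kilobase in WT clones, Eif1ax, which promotes scanning, stood at percentile 98.1 to 98.4, where the range covers 3 ways of choosing the transcript length, Eef1e1 at 94.1 to 94.6 and Eif3j1 at 91.9 to 92.5. Near the bottom stood Eif2s3x at percentile 2.54 to 4.33, Pabpc4 at 3.36 to 4.72, Eef1a1 at 3.87 to 4.40 and Pabpc1 at 2.83 to 10.3. Eef1a1 thus had the most footprints of the members per length and still one of the lowest ratios. The part of reads shared with processed copies of Eef1a1 in this ratio was not tested. The Eef1a1 mRNA level of 121673 ± 18872 counts per exon kilobase (mean ± SD, n = 3) compares with 1056 ± 140.0 for Eif1ax. Eef1a1 and Pabpc1 are both on the list of known TOP mRNAs, but members of that list did not all rank low. Eef1d stood at percentile 89.99 to 98.63, Eif3f at 74.6 to 75.9 and Eef1b2 at 48.8 to 72.4. Eif3e stood at 10.4 to 12.1, Eef1g at 10.6 to 12.3 and Eif4b at 16.9 to 22.1. Eef2 stood at 18.32 to 20.03 and Eif3h at 31.3 to 33.2. Low ratios also occurred outside the list, with Eif4a2 at 3.23 to 12.6 and Eif4enif1 at 6.98 to 8.35.

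**Figure D1:**
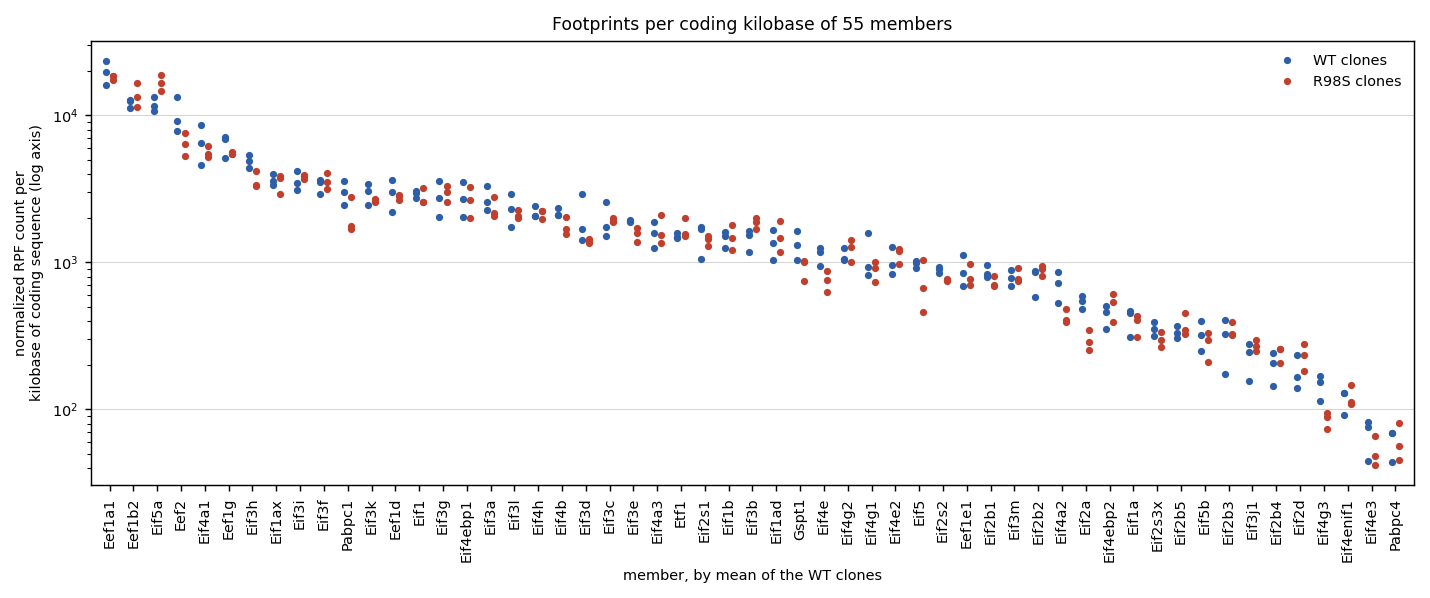
Normalized RPF count per kilobase of coding sequence (log axis) of the 55 members with mRNA reads, ordered by the mean of the WT clones, with each point 1 clone (blue, WT; red, R98S). Eef1a1, Eef1b2, Eif5a and Eef2 form the upper end, and the R98S points lie below the WT points for Eif2a, Eif4a2 and Eif4g3.

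The first question was which members differ between RPL10 R98S and WT cells in mRNA level, in RPF count and in translation efficiency (TE), the ratio of RPF to mRNA of the same clone. Each was tested over all genes with limma on log2(value + 1), differences are given on that scale as R98S minus WT, and a gene was called at an adjusted p under 0.1. Of the 56 members 55 passed the filter on low values in all 3 tests, all except Pabpc6. At the mRNA level 0 of 55 members were called in either direction, against 3.03% of all genes called higher and 3.91% called lower in R98S, 6.94% together. At an unadjusted p under 0.05 the mRNA count was 7 members, or 12.7%, against 17.9% of all genes, and DESeq2 on recovered reads called 2 higher (Eif2s2 and Eif5b) and 1 lower (Eif2a), against 5.22% and 6.11% of all genes. In the RPF data 3 members fell in R98S cells, Eif2a, Eif4g3 and Eif4a2, which is 5.45% of 55 against 4.62% of all genes, and 0 rose, against 3.13% (7.76% in either direction). At an unadjusted p under 0.05 the RPF count was 9 members, or 16.4%, against 20.3% of all genes, and DESeq2 called 0 higher and 4 lower (Eef2 in addition to these 3), against 4.9% and 6.54% of all genes. For TE 0 members were called by limma, with 0% of all genes called higher and 0.0221% lower, 5 members had an unadjusted p under 0.05 (9.09% against 7.85%), and DESeq2 called 1 lower (Eif2s2) and 0 higher, against 0.42% and 0.177% of all genes. The shares of members called by limma stood near or below those of all genes.

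The differences were small. The median log2 difference over the 55 members was 0.02 for mRNA, -0.06 for RPF and -0.15 for TE, beside 0.01, 0.01 and -0.0014 over all genes tested. The 95% interval of the difference lay within 2-fold either way for 49 of 55 members in mRNA (89.1%, against 64.9% of all genes). It did so for 47 in RPF (85.5%, against 66.8%) and 45 in TE (81.8%, against 80.4%). In mRNA the median SE was 0.185 over the members and 0.234 over all genes, which also narrows these intervals. Clone values did not overlap between genotypes for 7 members higher and 3 lower in R98S mRNA, against 11.9% and 11.6% of all genes. In RPF they did not overlap for 2 higher and 10 lower, or 3.64% and 18.2%, against 12.5% and 12.8%. The 10 were Eef2, Eif2a, Eif2s2, Eif3e, Eif3h, Eif4a2, Eif4b, Eif4e, Eif4g3 and Gspt1. An exact two-sided permutation test of 3 against 3 clones cannot go below p = 0.1, so calls on single members rest on the limma fit.

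**Figure D2:**
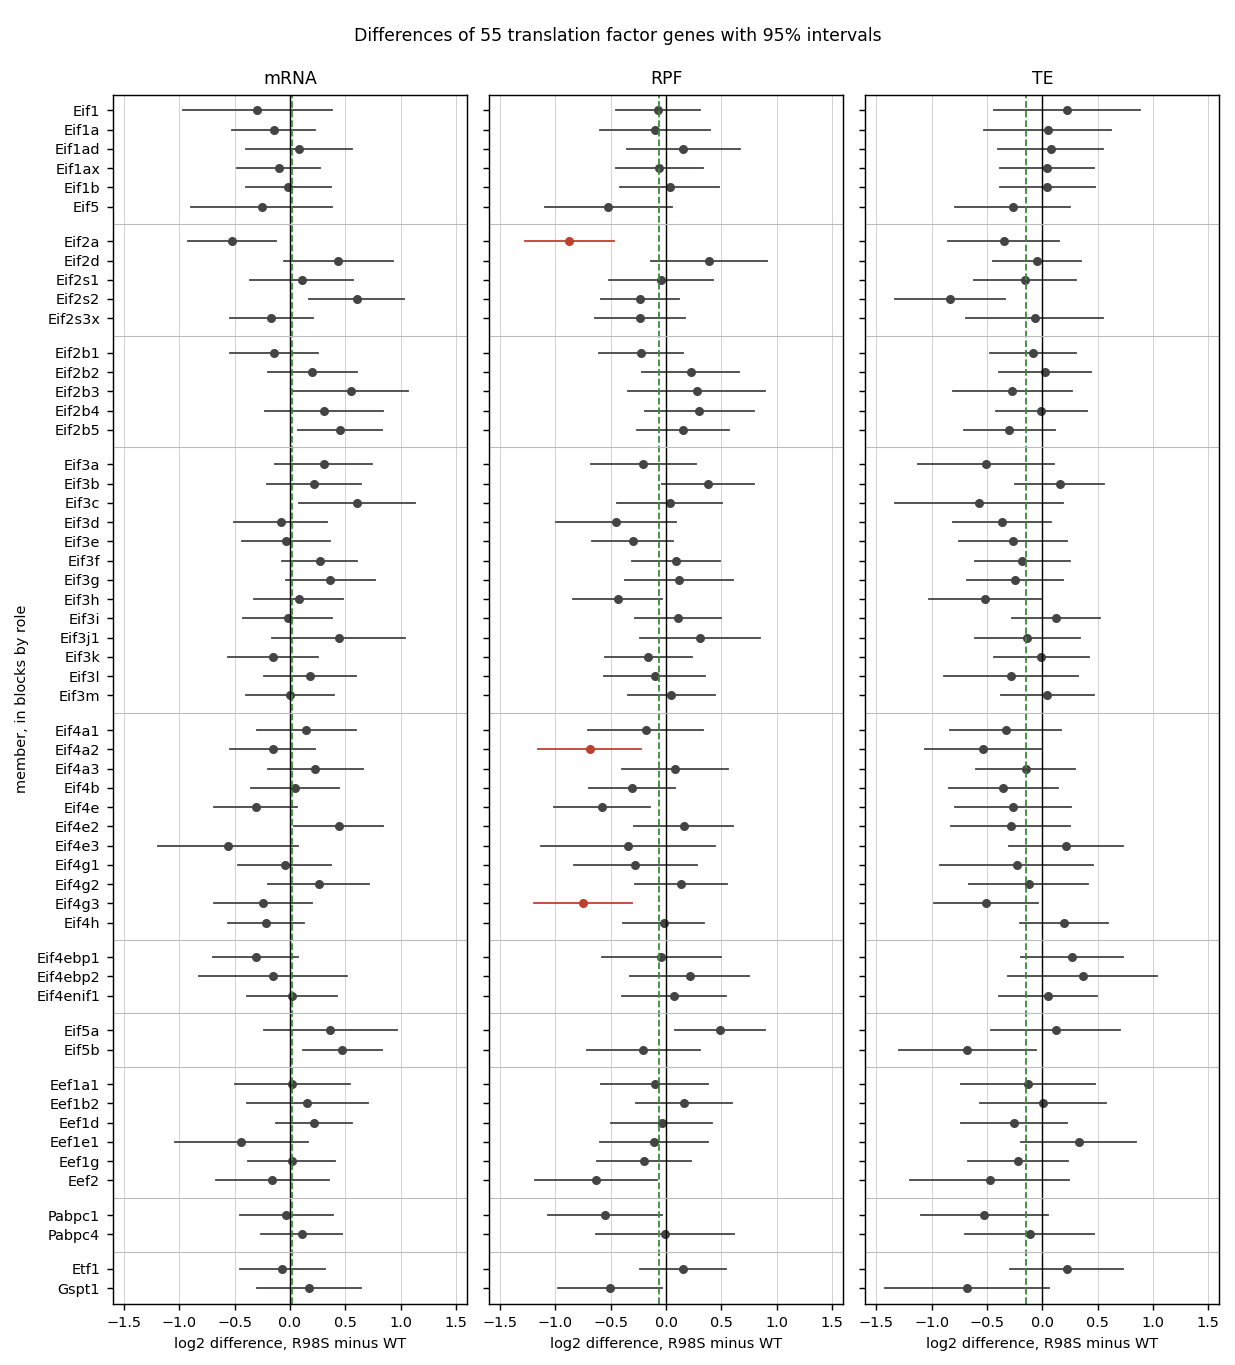
Log2 difference, R98S minus WT, of 55 members in mRNA, RPF and TE, with limma's 95% interval as a line, in blocks by role (start site scanning, eIF2, eIF2B, eIF3, eIF4, eIF4E partners, eIF5A and eIF5B, elongation, poly(A) binding, release). Red marks the 3 members called, all lower in RPF, and the green dashed line is the median of the members, at 0.02, -0.06 and -0.15.

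Eif2a carried the largest RPF difference of the members. It encodes a single-chain protein that can bring initiator tRNA to the ribosome and is not a subunit of eIF2, and it lies at chr3:58525821-58557501 on the plus strand (GRCm38). Its normalized RPF counts were 581, 429 and 485 in R98S clones 11, 13 and 35 and 991, 925 and 813 in WT clones 28, 29 and 36. All R98S clones lay below all WT clones, at 498 ± 76.6 against 909 ± 89.8 (mean ± SD, n = 3 each), and the log2 difference was -0.87 (SE 0.18, limma adjusted p = 0.0273). Its mRNA counts were 2635, 2381 and 2681 in the R98S clones and 3053, 4339 and 3769 in the WT clones, again without overlap, with a log2 difference of -0.52 (SE 0.18, limma adjusted p = 0.151), and its TE difference was -0.35 (SE 0.22, limma adjusted p = 0.691). Genes of chromosome 3 as a whole were lower in R98S cells, the lowest of 20 chromosomes in both assays: the median RPF difference of its 419 tested genes was -0.31, and relative to the WT mean it was -0.02 in R98S clone 11, -0.45 in clone 13 and -0.38 in clone 35. With the median of each chromosome removed from each library, the RPF difference of Eif2a was -0.58 (limma adjusted p = 0.0745) and its mRNA difference -0.26. Without R98S clone 13 the adjusted p of the RPF difference was 0.134. Serp1 overlaps Eif2a on the other strand, and whether reads were counted by strand is not given in the sources used here.

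Of the 3 subunits of eIF2 itself, 0 were called by limma, 1 had an unadjusted p under 0.05 in mRNA and in TE, and DESeq2 called that one. Of all genes 17.9% in mRNA and 7.85% in TE had an unadjusted p under 0.05. Eif2s2, the beta subunit that contacts mRNA and initiator tRNA, had normalized mRNA counts of 7428, 9992 and 7581 in the R98S clones and 5139.8, 4795 and 6525 in the WT clones, and all R98S values lay above all WT values. Its RPF counts lay the other way, with 698, 711 and 715 in the R98S clones and 841, 787 and 871 in the WT clones, all R98S values below all WT values. The log2 differences were 0.60 (SE 0.19, limma adjusted p = 0.128) for mRNA and -0.23 (SE 0.16, limma adjusted p = 0.447) for RPF. As a ratio, its TE was 0.0940, 0.0711 and 0.0944 in the R98S clones and 0.164, 0.164 and 0.133 in the WT clones, the largest negative TE difference of the members at -0.83 (SE 0.22, limma adjusted p = 0.590), with an interval of -1.33 to -0.34. DESeq2 on the recovered reads gave an adjusted p of 0.0388 for it, and the other 12 settings, with adjusted p from 0.353 to 1.000, did not call it. For Eif2s1, the alpha subunit whose phosphorylation by the Eif2ak kinases lowers initiation, the differences were 0.11 in mRNA, -0.05 in RPF and -0.15 in TE, and for Eif2s3x, the GTP-binding gamma subunit, -0.17, -0.24 and -0.07. Eif2d, a factor that can place initiator tRNA in special mRNAs, had RPF counts of 400.4, 470.2 and 312 in the R98S clones and 236, 396 and 282 in the WT clones, which overlapped, and an RPF difference of 0.39 (SE 0.24, limma adjusted p = 0.398), which was 0.22 without WT clone 28 and 0.59 without WT clone 29.

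The 5 subunits of eIF2B, the exchange factor of eIF2, had mRNA differences of -0.14 to 0.55 and RPF differences of -0.23 to 0.30, 4 of 5 above 0 in each. By limma 0 passed the test, and 2 had an unadjusted p under 0.05, both in mRNA (40% of the 5, against 17.9% of all genes). The catalytic subunit Eif2b5 had mRNA counts of 2407, 2238 and 2518 in the R98S clones and 1933, 1491 and 1839 in the WT clones without overlap, and a difference of 0.45 (SE 0.17, limma adjusted p = 0.188). For Eif2b3, which showed the third largest positive mRNA difference, the counts were 1107, 1055 and 940.5 in the R98S clones and 698, 524 and 962 in the WT clones, and WT clone 36 lay within the R98S range (difference 0.55, SE 0.23, limma adjusted p = 0.255). Of the 6 start site factors 0 were called by limma and 0 had an unadjusted p under 0.05 in any measure, with RPF differences of -0.52 to 0.16. The largest of these was for Eif5, the GTPase activator of eIF2, whose RPF counts were 816, 562 and 1264 in the R98S clones and 1214, 1129 and 1252 in the WT clones: R98S clone 35 stood with the WT clones, and without it Eif5 was called lower by limma. Eif1, which guards start codon choice, had TE values of 0.136, 0.133 and 0.116 in the R98S clones and 0.0689, 0.150 and 0.127 in the WT clones. WT clone 28 was the lowest, and the TE difference of 0.22 turned to -0.11 without that clone.

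The eIF3 complex is a scaffold of 12 core subunits that joins the small ribosomal subunit, eIF4G and the other factors, with Eif3j1 as a loosely bound partner. In RPF counts per coding kilobase the 12 core subunits of WT clones spanned 6.23-fold, from Eif3m to Eif3h, and between 5.56-fold and 7.79-fold in single clones. Eif3m had 685, 781 and 886 and Eif3h 5342, 4388 and 4924 RPF counts per coding kilobase in WT clones 28, 29 and 36. In mRNA counts per exon kilobase the span was 6.31-fold, from Eif3d to Eif3h, and with median transcript lengths it was 4.33-fold. The coefficient of variation over the 12 means was 42.4% for RPF and 66.2% for mRNA, so the subunits were closer to equal in footprints than in mRNA with these lengths. With median transcript lengths the same values were 45.2% and 47.8%. With the longest coding transcripts Eif3e and Eif3h had the highest mRNA levels per length of the 12, and both belong to the known TOP mRNAs. With median transcript lengths Eif3c, which is not on that list, stood above Eif3e in WT clones, at 8447 against 7515 mRNA counts per exon kilobase. A processed copy, Eif3s6-ps2, took 177 to 688 normalized mRNA counts and can share reads with Eif3e.

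**Figure D3:**
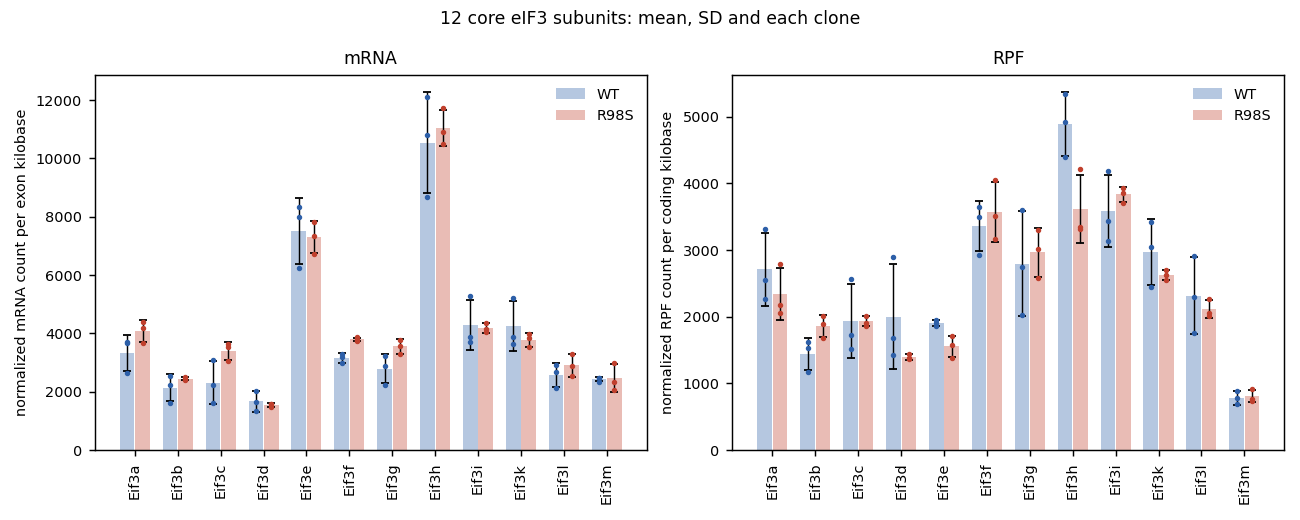
Normalized mRNA count per exon kilobase (left) and normalized RPF count per coding kilobase (right) of the 12 core eIF3 subunits, as the mean of 3 clones (bars; blue, WT; red, R98S), its SD (error bars) and each clone (points). Eif3h is the highest subunit in WT clones in both panels, and the span over subunits in WT clones is 6.31-fold in mRNA and 6.23-fold in RPF.

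Between genotypes 0 of the 13 eIF3 genes were called by limma, and their RPF differences were -0.45 to 0.38. In each of mRNA, RPF and TE 1 had an unadjusted p under 0.05 (7.69%, against 17.9%, 20.3% and 7.85% of all genes). Eif3b, a core scaffold subunit, had RPF counts of 4451, 4715 and 3934 in the R98S clones and 3601, 2751 and 3821 in the WT clones, all R98S values above all WT values, with a difference of 0.38 (SE 0.19, limma adjusted p = 0.298). At the other end, Eif3h had RPF counts of 3326, 3301 and 4193 in the R98S clones and 5321, 4371 and 4905 in the WT clones without overlap, a difference of -0.44 (SE 0.18, limma adjusted p = 0.208), while its mRNA counts overlapped and differed by 0.08. Eif3e, without overlap as well, differed by -0.30 in RPF and -0.03 in mRNA. Eif3d, the subunit that can bind certain mRNA caps, had RPF counts of 2198, 2281 and 2159.5 in the R98S clones and 4598, 2252 and 2669.8 in the WT clones, and WT clone 28 alone lay far above the rest (difference -0.45, SE 0.25, limma adjusted p = 0.335). The largest mRNA difference of all members was that of Eif3c, another core scaffold subunit, at 0.60 (SE 0.23, limma adjusted p = 0.208): its mRNA counts were 11978, 12268 and 10302 in the R98S clones and 5454, 7592 and 10419 in the WT clones, with WT clone 36 inside the R98S range and WT clone 28 lowest, and the difference was 0.37 without WT clone 28. Its RPF counts were 5391, 5107 and 4991 in the R98S clones and 6843, 4063 and 4625 in the WT clones, highest in WT clone 28, and differed by 0.03, so that its TE difference of -0.57 was -0.12 without WT clone 28. Eif3j1 had a positive RPF difference, 0.31, from RPF counts of 179, 196 and 215 in the R98S clones and 113, 199.9 and 177 in the WT clones, which overlapped, and the difference was 0.06 without WT clone 28. Its near-identical copy Eif3j2, listed only in the mRNA table with 144 to 226 counts, can share its reads.

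Of the 11 eIF4 genes for cap binding, unwinding and scaffolding, 2 fell in RPF and 0 rose (18.2% lower, against 4.62% of all genes), and 8 of 11 RPF differences were below 0 (72.7%, against 48.8%). Eif4g3, a scaffold that can replace eIF4G1 in the cap complex, lies at chr4:137993022-138208508 (plus strand). Its RPF counts were 460.0, 382 and 492 in R98S clones 11, 13 and 35 and 875, 597 and 796 in WT clones 28, 29 and 36, every R98S clone lower than every WT clone, at 445 ± 56.5 against 756 ± 144 (mean ± SD, n = 3 each), a difference of -0.75 (SE 0.20, limma adjusted p = 0.0647). Its mRNA counts of 2588, 2477 and 2156 in the R98S clones and 3077, 2204 and 3382 in the WT clones overlapped and differed by -0.24, and its TE by -0.51 (SE 0.21, limma adjusted p = 0.629), without overlap. Genes of chromosome 4 had a median RPF difference of 0.21, and with chromosome medians removed Eif4g3 differed by -0.94 (limma adjusted p = 0.0247). The main scaffold Eif4g1 had RPF counts of 4331, 3483 and 4784 in the R98S clones and 7472, 3918 and 4387 in the WT clones, with WT clone 28 far above the rest, and differed by -0.28 (SE 0.25, limma adjusted p = 0.578). The third paralog Eif4g2, which lacks the eIF4E binding site, differed by 0.14 in RPF and 0.26 in mRNA. The call on Eif4g3 was lost without R98S clone 11 (limma adjusted p = 0.168), R98S clone 13 (0.254), WT clone 28 (0.171) or WT clone 36 (0.174).

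Eif4a2, a DEAD-box helicase and the close paralog of Eif4a1, lies at chr16:23107444-23114136 (plus strand) and had RPF counts of 564, 458 and 470.2 in R98S clones 11, 13 and 35 and 837, 999 and 611 in WT clones 28, 29 and 36. The genotypes did not overlap, with 497 ± 58.0 against 816 ± 195 (mean ± SD, n = 3 each), and the difference was -0.69 (SE 0.21, limma adjusted p = 0.0984), just inside the threshold. Its mRNA counts of 5875, 5337 and 4743 in the R98S clones and 6821, 5683 and 5304 in the WT clones overlapped, with a difference of -0.16, and TE was 0.0960, 0.0857 and 0.0991 in the R98S clones and 0.123, 0.176 and 0.115 in the WT clones, lower in every R98S clone, at -0.54 (SE 0.23, limma adjusted p = 0.629). The call was lost in 5 of the 6 fits that left out a clone and with chromosome medians removed (limma adjusted p = 0.126). Eif4a1 had RPF counts of 6331, 7116 and 6030.2 in the R98S clones and 9952, 5325 and 7527 in the WT clones, highest in WT clone 28, and a difference of -0.18 (SE 0.23, limma adjusted p = 0.705). Eif4a3, the helicase of the exon junction complex, differed by 0.08. Reads that match both Eif4a1 and Eif4a2 cannot be told apart. Per the paper's methods, alignments were kept if primary and with a mapping quality of at least 10. How many of the reads matching both genes this removed is not given in the sources used here.

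Eif4e, the cap-binding protein, had RPF counts of 519.6, 370.4 and 448 in the R98S clones and 558, 739 and 696 in the WT clones, lower in every R98S clone, and a difference of -0.58 (SE 0.20, limma adjusted p = 0.133), the nearest to the threshold of the members not called in RPF. It lies on chromosome 3 like Eif2a, and with chromosome medians removed it differed by -0.29 (limma adjusted p = 0.376). Its relative Eif4e2, a weaker cap binder tied to repression, had mRNA counts of 2293, 2452 and 1893 in the R98S clones and 1418, 1619 and 1848 in the WT clones, higher in every R98S clone at 0.44 (SE 0.18, limma adjusted p = 0.232). The third, Eif4e3, had mRNA counts of 182, 165 and 204 in the R98S clones and 191, 272 and 378 in the WT clones and 23.5 to 46.1 RPF counts, with the largest negative mRNA difference of the members, -0.56 (SE 0.28, limma adjusted p = 0.340). The limma adjusted p of this difference was 0.0955 without WT clone 28. Of the helicase cofactors, Eif4b had RPF counts of 3004, 2770.0 and 3622 in the R98S clones and 3708, 4129 and 3706 in the WT clones, lower in every R98S clone at -0.30 (SE 0.18, limma adjusted p = 0.366), and Eif4h differed by -0.02. The inhibitors and partners of eIF4E had small RPF differences: Eif4ebp1 differed by -0.04, Eif4ebp2 by 0.21 and the transporter Eif4enif1 by 0.07. Eif4ebp1 mRNA was 3104, 3198 and 2672 in the R98S clones and 3799.8, 3205 and 4157 in the WT clones, lower in every R98S clone, at -0.31 (SE 0.17, limma adjusted p = 0.383). Eif4ebp2 had a TE difference of 0.36 (SE 0.30, limma adjusted p = 0.731), from overlapping ratios of 0.127, 0.108 and 0.0721 in the R98S clones and 0.108, 0.0656 and 0.0652 in the WT clones, which ran from 0.19 without R98S clone 11 to 0.61 without WT clone 28.

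**Figure D4:**
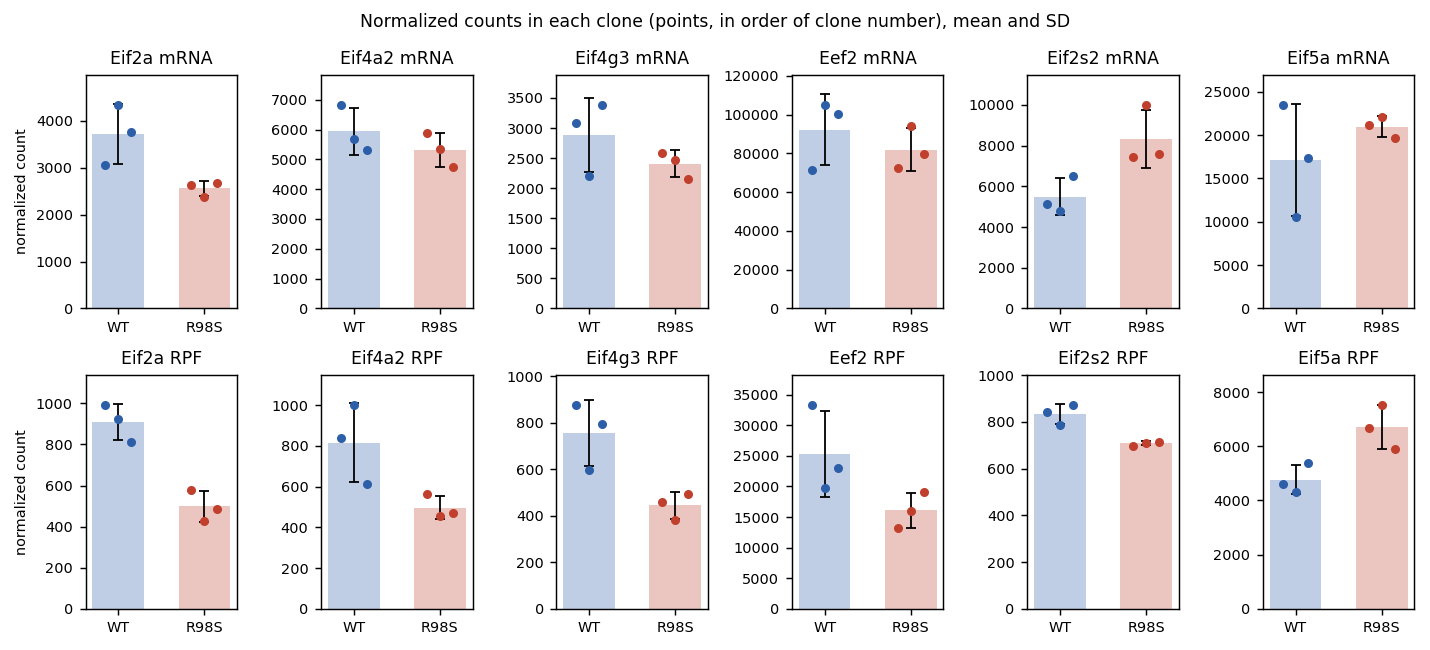
Normalized mRNA counts (upper row) and RPF counts (lower row) of 6 members, with each clone as a point, in order of clone number, the mean as a bar and the SD as an error bar (n = 3). The R98S points lie below all WT points in RPF for Eif2a, Eif4a2, Eif4g3, Eef2 and Eif2s2 and above them for Eif5a, and in mRNA they lie above them for Eif2s2.

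Eif5a had the largest positive RPF difference of the members. Its RPF counts were 6691, 7510.4 and 5891 in the R98S clones and 4622, 4312 and 5369 in the WT clones, every R98S clone above every WT clone, and the difference of 0.49 (SE 0.18, limma adjusted p = 0.164) did not pass the threshold. Its mRNA counts of 21158, 22088 and 19659 in the R98S clones and 23468, 10562 and 17307 in the WT clones overlapped, with WT clone 28 the highest of the 6 and WT clone 29 the lowest, and differed by 0.37. Eif5b, the GTPase that joins the subunits, had mRNA counts of 6655, 6105 and 5669.6 in the R98S clones and 4044, 4386 and 4848 in the WT clones, higher in every R98S clone at 0.47 (SE 0.16, limma adjusted p = 0.148), whereas its RPF counts of 1189.6, 751 and 1063 in the R98S clones and 1434, 1144 and 888 in the WT clones overlapped. Its TE difference was -0.68 (SE 0.28, limma adjusted p = 0.629), or -0.45 without WT clone 28, and WT clone 36, at 0.183, lay inside the R98S range of 0.123 to 0.187.

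Among the elongation factors, Eef2 stood apart from the rest. It had RPF counts of 13255, 16026 and 19034 in R98S clones 11, 13 and 35 and 33274, 19717 and 23082 in WT clones 28, 29 and 36. Every R98S clone was lower than every WT clone, and WT clone 28 was far above the others. The difference was -0.63 (SE 0.25, limma adjusted p = 0.181), and without WT clone 28 it was -0.42 (limma adjusted p = 0.337). Of 13 alternative settings, DESeq2 on recovered reads alone called it (adjusted p = 0.0656). Eef2 took 0.229 to 0.326% of all RPF counts in R98S clones and 0.337 to 0.486% in WT clones, while its mRNA counts of 72227, 94086 and 79628 in the R98S clones and 71407, 104955 and 100341 in the WT clones overlapped. For the eEF1 genes the RPF differences were -0.20 to 0.16, with 0 of 5 called by limma or at an unadjusted p under 0.05. Eef1a1 had RPF counts of 24520.4, 24470.5 and 23075 in the R98S clones and 31101, 21215 and 26074 in the WT clones, and the interval of its difference was -0.59 to 0.38. Eef1e1, which belongs to the multi-tRNA synthetase complex, had an mRNA difference of -0.44 (SE 0.27, limma adjusted p = 0.442), from counts of 649, 700.2 and 1121 in the R98S clones and 1418, 819.8 and 1092 in the WT clones with WT clones 29 and 36 inside the R98S range, and a TE difference of 0.33. Without WT clone 28 these were -0.24 and 0.12. Eef1d mRNA, at 5195, 4539 and 4997 in the R98S clones and 4460.4, 3958 and 4276 in the WT clones, was higher in every R98S clone by 0.21.

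Pabpc1, the main cytoplasmic poly(A)-binding protein, had RPF counts of 3117, 3275 and 5159 in the R98S clones and 4554, 6563 and 5575 in the WT clones. R98S clones 11 and 13 were the lowest and R98S clone 35 lay inside the WT range, and the difference was -0.55 (SE 0.23, limma adjusted p = 0.213), past the threshold only in the fit without R98S clone 35. Its mRNA counts, 58622, 55035 and 58216 in the R98S clones and 51239.8, 65538 and 59750.4 in the WT clones, differed by -0.03. Pabpc4, an inducible relative, had 84.3 to 154 RPF counts and a difference of -0.0084. Of the release factors, Gspt1 (eRF3) had RPF counts of 1851, 1386 and 1882 in the R98S clones and 3015, 2413 and 1912 in the WT clones, lower in every R98S clone at -0.51 (SE 0.21, limma adjusted p = 0.208), and a TE difference of -0.68 (SE 0.33, limma adjusted p = 0.635), which was -0.33 without WT clone 28. Etf1 (eRF1) differed by 0.15, from RPF counts of 2514, 1949 and 1887 in the R98S clones and 1828, 1986 and 1866 in the WT clones that overlapped. Per coding kilobase, RPF counts were 2009, 1558 and 1509 for Etf1 and 1001, 750.1 and 1019 for Gspt1 in the R98S clones, and 1462, 1588 and 1492 and 1631, 1306 and 1035 in the WT clones, so that Etf1 was the higher of the pair in all clones except WT clone 28.

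Most TE differences lay below 0, while the median TE of the members overlapped between genotypes. Of the 55, 37 TE differences were below 0, or 67.3%, against 50.2% of all genes, and 0 were called. TE did not overlap between genotypes for 1 member higher (Eif4h) and 6 lower (Eif2s2, Eif3d, Eif3h, Eif4a2, Eif4g3 and Pabpc1), against 7.45% and 7.36% of all genes. Read clone by clone, the median log2 TE of the members relative to that of all genes was -0.26, -0.45 and -0.44 in R98S clones 11, 13 and 35 and -0.33, -0.29 and -0.35 in WT clones 28, 29 and 36. R98S clones 13 and 35 lay below the WT clones and R98S clone 11 above them, so the genotypes overlapped.

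The list of known TOP mRNAs among the members held Eef1a1, Eef1b2, Eef1d, Eef1g, Eef2, Eif3e, Eif3f, Eif3h, Eif4b and Pabpc1. Of these 10, 9 TE differences were below 0 and Eef1b2 was at 0.0043, and the median was -0.26, beside -0.11 for the other 45 members, of which 28 were below 0. By limma 0 of the 10 were called, 1 had an unadjusted p under 0.05 (10%, against 7.85% of all genes) and DESeq2 called 0. The difference was -0.52 (SE 0.26, limma adjusted p = 0.635) for Pabpc1, -0.52 (SE 0.23, limma adjusted p = 0.629) for Eif3h and -0.48 (SE 0.32, limma adjusted p = 0.696) for Eef2. Those of Eif4b, Eif3e, Eef1d, Eef1g, Eif3f and Eef1a1 ran from -0.35 to -0.13. The mRNA counts of these 10 differed by -0.16 to 0.27 (median 0.03) and their RPF counts by -0.63 to 0.16 (median -0.25). Relative to all genes, the median log2 TE of the 10 was -0.69, -1.0 and -0.70 in R98S clones 11, 13 and 35 and -0.59, -0.76 and -0.52 in WT clones 28, 29 and 36, and WT clone 29 lay below R98S clones 11 and 35. For 6 of the 10 the TE difference changed sign or moved by over 1.5 times without WT clone 28: it was then 0.14 for Eef1a1, -0.27 for Eef1b2, -0.13 for Eef1d, -0.09 for Eef2, -0.14 for Eif3e and -0.32 for Eif3h. Of the 5 members of this list with a window, Eef1a1 and Eif3f held the pyrimidine run, with TE differences of -0.13 and -0.18. Eef1b2, at 0.0043 the nearest to 0 of the list, held no run. A link between the run and TE was not tested.

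**Figure D5:**
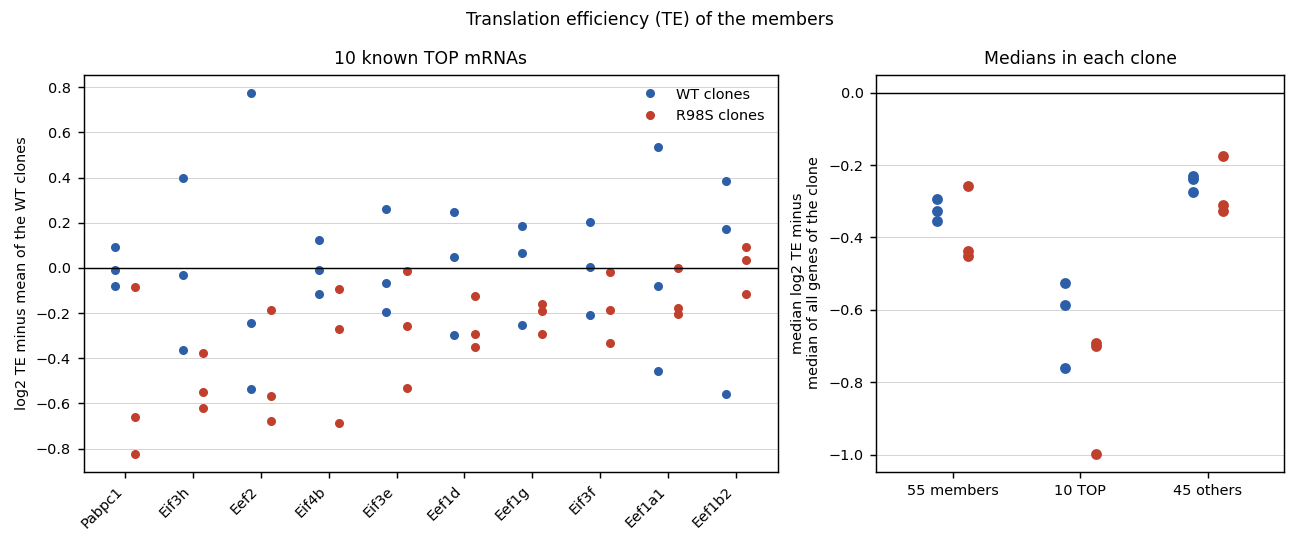
Left: log2 TE of the 10 known TOP mRNAs in each clone, minus the mean of the WT clones. Right: median log2 TE of 55 members, of the 10 known TOP mRNAs and of the 45 others in each clone, minus the median of all genes of that clone. Blue points are WT and red points R98S clones. In each of the 3 columns on the right the genotypes overlap.

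Some paralogs had few or no reads. A further 19 symbols that match the rule were listed only in the mRNA table, and 7 of them were at 0 in all 6 libraries. These include Eef1a2, the muscle and nerve form of eEF1A, where a count of 0 allows up to 3 reads in each library, while Eef1a1 had 67003 to 295861 recovered mRNA reads. Eif5a2, the second eIF5A gene, had at most 4.09 normalized mRNA counts against 10562 to 23468 for Eif5a, and the third 4E-binding protein gene Eif4ebp3 at most 10.7. Within pairs that were both expressed, Eif1 had 5089.8 to 12014 mRNA counts and its paralog Eif1b 1520.0 to 1901, and their RPF differences were -0.07 and 0.03. The eIF1A genes Eif1a and Eif1ax differed by -0.10 and -0.06 in RPF. Gspt2, the paralog of Gspt1, passed the filter on low values in neither assay.

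The regulators and partners of these factors were read from a list of 40 tested genes. By limma 2 of 40 were called higher and 0 lower in R98S mRNA (5% higher, against 3.03% of all genes). In RPF limma called 1 higher and 0 lower (2.5% higher, against 3.13%), and in TE 0. An unadjusted p under 0.05 was reached by 5 in mRNA, 3 in RPF and 1 in TE. These were 12.5%, 7.5% and 2.5%, against 17.9%, 20.3% and 7.85% of all genes. DESeq2 called 0 in TE, and in mRNA it called Ncbp1 higher (adjusted p = 0.0917) besides the 2 limma calls. In RPF it called Cyfip1 lower (adjusted p = 0.0646) and, besides Ncbp1, Eef2k higher (adjusted p = 0.0861). Over all genes DESeq2 called 5.22% higher in mRNA, and 4.9% higher and 6.54% lower in RPF. Both limma calls in mRNA were kinases known to restrain translation. Eef2k, which phosphorylates and inactivates eEF2, had mRNA counts of 2548, 2315 and 2877 in the R98S clones and 1335, 1421 and 1128 in the WT clones, every R98S clone above every WT clone, and rose by 1.00 (SE 0.17, limma adjusted p = 0.0134) on the log2 scale. The call held in 13 of 13 alternative settings. Its RPF counts, 857, 746 and 1170.4 in the R98S clones and 731, 574 and 448 in the WT clones, differed by 0.66 (SE 0.23, limma adjusted p = 0.140). Eif2ak1, the heme-regulated kinase of eIF2 alpha, had mRNA counts of 1583, 1653 and 1667 in the R98S clones and 811, 1096 and 1109 in the WT clones and rose by 0.71 (SE 0.18, limma adjusted p = 0.0646), with an RPF difference of 0.26. This call held in 9 of 13 and was lost without R98S clone 11, 13 or 35 or WT clone 36 (limma adjusted p up to 0.213). In RPF, Ncbp1, the large subunit of the nuclear cap-binding complex, rose by 0.79 (SE 0.16, limma adjusted p = 0.0232), from RPF counts of 1696, 1539.6 and 1718 in the R98S clones and 975, 916 and 969 in the WT clones without overlap, and the call held in 13 of 13. The other 3 eIF2 kinases differed by -0.06 to 0.15 in mRNA, Mtor by 0.04 and Larp1 by -0.14. Of 11 genes that modify eIF5A, eEF2, eEF1A or eRF1, 0 were called by limma in any measure and DESeq2 called 0. An unadjusted p under 0.05 was reached by 2 of the 11, both in mRNA (18.2%, against 17.9% of all genes). Among the 11 were the hypusine enzymes Dhps and Dohh and the diphthamide genes Dph1, Dph2, Dph3, Dph5, Dph6 and Dph7.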

How the data were processed

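Ribosome footprints (RPF) and mRNA were sequenced in 12 libraries from 6 Ba/F3 clones, 3 per genotype, and a clone was the replicate. Per the paper's methods, reads were mapped with TopHat2 (2.0.11 per the submitters' processing notes) to mm10, RPF reads within the first 15 and last 5 codons were left out, and the authors deposited 1 table per assay of gene counts divided by DESeq2 size factors, a signal with no upper limit. Whole reads were recovered from each deposited signal column for 100% of values. Alignments were kept, per the paper's methods, if primary and with a mapping quality of at least 10. The strand of counting is not given in the sources used here.

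Genotypes were compared per assay by limma 3.58.1 under R 4.3.3, on the log2 of the value with a pseudocount of 1, over all genes with a mean of at least 10, and TE, as log2 RPF minus log2 mRNA of the same clone, over genes with at least 10 in every library. P-values were adjusted by Benjamini-Hochberg over all genes tested, with a threshold of 0.1. The tables were normalized separately, so TE was compared between clones, or ranked among genes, and not read as an absolute level. P-values measure the spread between single-cell-derived clones. Clone numbers in the labels pair each RPF with its mRNA library: deviations from the genotype means correlated at 0.332 to 0.700 over genes, and 6 of 6 clones correlated best with their own mRNA library. Alternatives were pseudocounts of 0.5 and 5, other filters, DESeq2 (1.42.0) and edgeR (4.0.16) on recovered reads, TMM factors, chromosome medians removed from each library, TE without the pairing, other transcript lengths, and each clone left out in turn. The scripts were tested on simulated reads in which 200 genes were changed. Of changes of 0.5 on the log2 scale, the limma fits recovered 0 in mRNA, 1 in RPF and 0 in TE. Of changes of 1.5 they recovered 197, 197 and 128, beside 12, 21 and 13 false calls. A member that was not called may thus still differ by an amount such as 0.5.

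The members and lists were chosen with earlier results of these data known. Given in full were members past the threshold, the 4 largest differences in each direction per measure, the 8 highest and 4 lowest in RPF per coding kilobase, paralog pairs and known TOP mRNAs. Other members were named after their values were seen, mostly for clone values that did not overlap. Members with near-identical copies or overlapping genes are uncertain. The promoter windows come from RefSeq, and gene positions from GENCODE vM21 on GRCm38.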

Additional observations from a re-analysis of the deposited data

How the results depend on the processing

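Of 442 recomputations of 34 member differences, 417 kept their direction and their side of the threshold, 11 lost and 7 gained a call, and 7 changed sign. The sign changes were in TE: Eef1b2 stood at -0.0042 with edgeR and -0.0024 with TMM factors. With a clone left out, Eef1b2 TE ran from -0.27 (without WT clone 28) to 0.20, below 0 also without R98S clone 11 (-0.04) or 35 (-0.01), Eef1a1 TE from -0.35 to 0.14 (without WT clone 28), and Eif1 TE from -0.11 (without WT clone 28) to 0.45. The cause of these changes was not tested. Members called higher in mRNA went from 0 to 2 with DESeq2 (Eif2s2 and Eif5b), members called lower in mRNA to 1 with DESeq2 (Eif2a), and members called lower in TE to 1 with DESeq2 (Eif2s2). Leaving out each clone gave 0 to 3 members lower in mRNA, the 3 being Eif2a, Eif4e3 and Eif4ebp2 without WT clone 28, and 0 to 4 members lower in RPF. The RPF count was 0 without R98S clone 13, 1 (Eif2a) without R98S clone 11 or WT clone 28, and 4 (Eif2a, Eif4g3, Eif5 and Pabpc1) without R98S clone 35. The limma, DESeq2 or edgeR adjusted p of the RPF difference ran from 0.00196 to 0.134 for Eif2a (called in 12 of 13 alternatives), 0.0158 to 0.254 for Eif4g3 (9 of 13) and 0.0368 to 0.301 for Eif4a2 (7 of 13). Without the replicate block, that is with the pairing of RPF and mRNA by clone left out, TE gave 0 members in either direction, 37 negative differences and a median of -0.15, so the pairing changed no call on a member. Negative TE differences numbered 35 to 43 and their median ran from -0.23 to -0.10 with a clone left out. Over all genes, DESeq2 called 591 higher and 692 lower in mRNA against 344 and 443 by limma, 469 higher in RPF against 300, and 16 higher and 38 lower in TE against 0 and 2; edgeR, the mean filter and the fit without the pairing each called 3 lower in TE. With a clone left out the counts were 130 to 491 higher and 182 to 622 lower in mRNA, 65 to 506 and 164 to 642 in RPF, and 0 to 1 and 0 to 2 in TE. With median transcript lengths, RPF counts per coding kilobase in WT clones were 38035 for Eef1a1, 51935 for Eef1b2 and 12182 for Eif4a1. The order of the first members thus changed with median lengths. For Eef1b2 the median coding length was 204 bases, against 675 for its longest and its principal transcript. With APPRIS principal transcripts Eef1a1, Eef1b2, Eif5a and Eef2 kept their values. Median lengths and the use of APPRIS principal transcripts, which was added after seeing the data as were the negative TE counts with a clone left out, changed no test between genotypes because they enter only the levels per length. With 3 clones a side, the 95% interval of the difference reached beyond 2-fold for 6 members in mRNA, 8 in RPF and 10 in TE, so a change of that size could not be told from none or a smaller one for these, and the 1 to 3 RPF counts of Pabpc6 allow no comparison.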
